A study of Mus musculus with 12 samples.

Results

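The miR-148/miR-152 family comprises mmu-miR-148a-3p, mmu-miR-148b-3p, and mmu-miR-152-3p (mmu stands for mouse and is left out below where no confusion arises), and these 3 miRNAs, found by their exact names among the 1881 mouse miRNAs of an Agilent array, were followed in microglial exosomes after repetitive mild traumatic brain injury (rmTBI). Exosomes are small vesicles that cells release and that carry miRNAs to other cells. They came from the cerebrum of adult male C57BL/6 mice, either sham-operated mice, which went through every step apart from the impact, or rmTBI mice, whose closed head received 4 impacts with 48 h between them. The rmTBI mice were sampled at 3, 14, and 42 days post-injury (DPI), so that there were 4 groups of 3 arrays each, 12 in all. The methods name the cortex and hippocampus of both sides as the tissue, whereas the sample labels name an injured hemisphere. Brain tissue was digested with papain, and the vesicles were precipitated and then captured with an antibody against CD11b, a surface protein of microglia that other myeloid cells also carry. The labels number the 3 arrays of a group as replicates and do not say whether each stands for its own mouse or for pooled mice, so every p value below measures the spread between these samples, which may be technical.

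Mature miRNAs guide Argonaute proteins to messenger RNAs, mostly through their seed, the bases at positions 2 to 8, and miRNAs with the same seed are expected to share many targets. The miR-148/miR-152 family is known for repressing the DNA methyltransferase Dnmt1, and in dendritic cells it dampens the response to microbial signals by repressing the kinase Camk2a. miR-148a is also known in liver as a repressor of the LDL receptor, which takes up lipoproteins.

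The 3 mature sequences are shown because the seed defines the family and because a few bases outside it are all that separates the members. They are written from 5′ to 3′ as RefSeq gives them, with the seed in capitals.

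miR-148a-3p: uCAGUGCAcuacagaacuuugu
miR-148b-3p: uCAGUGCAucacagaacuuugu
miR-152-3p: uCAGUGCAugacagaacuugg

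All 3 members were matched in the RefSeq table, and of its 1679 mature mouse miRNAs exactly 3 carried the seed CAGUGCA, all of them members. Counted from 1 at the 5′ end, miR-148a-3p and miR-148b-3p differ by C9U and U10C, with miR-148a-3p as the reference, and their last 12 bases are identical. miR-152-3p differs from miR-148a-3p by C9U, U10G, and U20G, and from miR-148b-3p by C10G and U20G, and it is 21 bases long where the other 2 are 22. Because the members are so alike, some cross-hybridization between their probes cannot be told apart from the signal of each member. On the mouse assembly GRCm38.p6, miR-148a-3p lies at chr6:51269829-51269850 on the minus strand, within the span of the gene model Gm38821. miR-148b-3p lies at chr15:103285185-103285206 on the plus strand within the span of Copz1, and miR-152-3p at chr11:96850439-96850459 on the plus strand within the span of Copz2. Copz1 and Copz2 encode related subunits of the COPI coat, which carries cargo between the Golgi and the endoplasmic reticulum. Which exon or intron holds each miRNA was not analysed here.

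Each member was read by 2 probes, each printed at 15 spots on an array. The intensity of a member was the sum of its probe averages over the spots kept. Its scaled level was that intensity divided by the 75th percentile of the array, taken over the 230 miRNAs detected on all 12 arrays, and put on the log2 scale. Levels below -5.06 were set to that floor, where they have no order and no spread between arrays. An array counted a member as above background if, for either probe, the share of kept spots that the scanner software marked well above background exceeded 0.5.

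The arrays differed in brightness along the time course. The 75th percentile was at most 348 on the sham arrays, at most 619 at 3 DPI and at least 588 at 14 DPI, and it reached 1385 or more on every array of 42 DPI, with 2936 as the highest value. The number of miRNAs above background rose in the same order, from between 243 and 285 on sham arrays to between 490 and 579 at 42 DPI. The 3 sham arrays and 3 DPI replicate 1 shared 1 slide, and the other 8 arrays shared another, so for sham against 14 or 42 DPI slide and group cannot be told apart except through that 1 array. Replicate 1 of 14 DPI was the least like its group (correlation across miRNAs of 0.885 and 0.875 with the other 2, which correlated at 0.996).

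mmu-miR-148a-3p was below background on all 3 sham arrays, with summed intensities of 10.4, 10.8, and 18.2. At 3 DPI the intensities were 16.3, 32.3, and 19.8, and only replicate 2 was above background. At 14 DPI they were 24.1, 96.3, and 111, and replicates 2 and 3 were above background while replicate 1 was not. At 42 DPI all 3 arrays were above background, at 325, 123, and 188. On the scaled log2 level, sham stood at -4.78, -4.33, and -4.26 (mean -4.45 ± 0.28, SD, n = 3) and 3 DPI at -4.62, -4.26, and -4.51 (mean -4.46 ± 0.19, SD, n = 3). The arrays of 14 DPI stood at -4.61, -3.61, and -3.33 (mean -3.85 ± 0.67, SD, n = 3) and those of 42 DPI at -3.17, -3.49, and -3.31 (mean -3.33 ± 0.16, SD, n = 3). All arrays of 42 DPI lay above all arrays of sham and of 3 DPI, while 14 DPI overlapped every other group, with replicate 1 among the sham and 3 DPI arrays and replicate 3 among those of 42 DPI.

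mmu-miR-148b-3p followed the same course from a dimmer start. Its summed intensities were 5.52, 2.55, and 9.10 in sham and 6.09, 17.1, and 11.6 at 3 DPI, and all 6 arrays fell on the floor, although 3 DPI replicate 2 was above background. At 14 DPI the intensities were 10.1, 50.6, and 62.0, with replicate 1 on the floor and below background and the others above background at scaled log2 levels of -4.53 and -4.17. At 42 DPI the intensities were 188, 71.4, and 107, all above background, at -3.96, -4.28, and -4.12 (mean -4.12 ± 0.16, SD, n = 3). No array of 42 DPI overlapped sham or 3 DPI.

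mmu-miR-152-3p was below background on every array of sham and of 3 DPI. Its summed intensities were 6.25, 6.26, and 12.4 in sham and 10.4, 18.2, and 11.4 at 3 DPI, and of these 6 arrays only sham replicate 3, at -4.81, was above the floor. At 14 DPI the intensities were 16.1, 59.9, and 68.2, with replicate 1 again on the floor and below background and the others at -4.29 and -4.03. At 42 DPI the intensities of 194, 79.9, and 108 gave scaled log2 levels of -3.92, -4.12, and -4.11 (mean -4.05 ± 0.11, SD, n = 3), all above background and above every array of sham and 3 DPI.

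**Figure D1:**
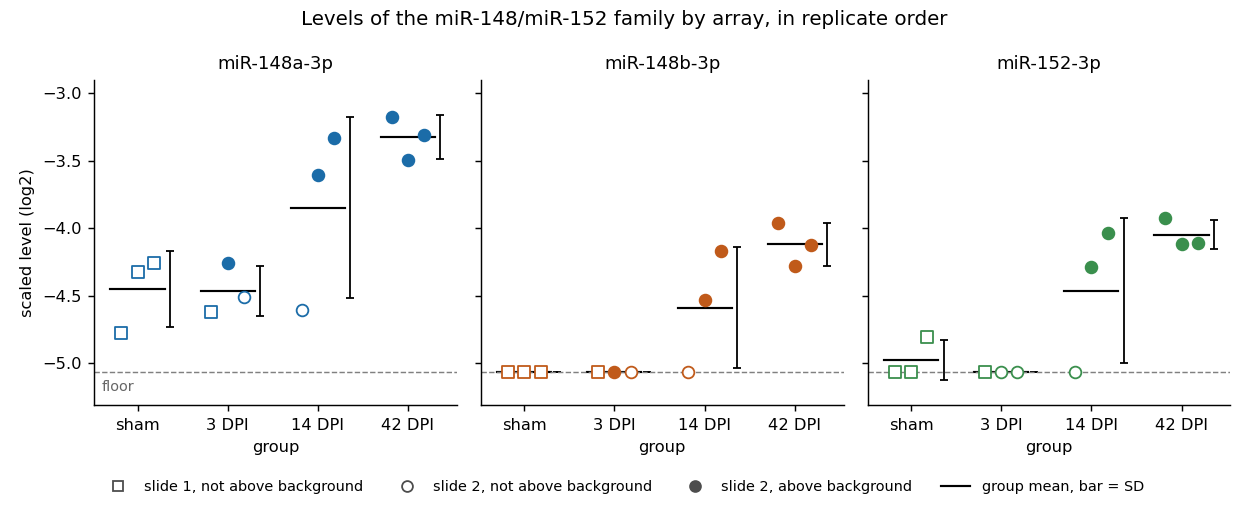
Scaled log2 level of each member (vertical axis) on the 3 arrays of each group (horizontal axis), with squares for slide 1, circles for slide 2, filled symbols for arrays above background, a line for the group mean, a bar for the SD, and a dashed line at the floor of -5.06. The 3 arrays of 42 DPI lie above all arrays of sham and 3 DPI for each member, and 14 DPI replicate 1 lies apart from the other 14 DPI arrays.

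The plot of levels by array shows that the same 2 arrays of 14 DPI carried the signal of all 3 members. The spots gave the same order, although they are those behind the levels and are not scaled between arrays, so they are no separate measurement. For miR-152-3p, 0 of 90 kept spots were well above background in sham, and at 3 DPI the count was 6 of 89. It was 61 of 88 at 14 DPI, while at 42 DPI every kept spot was (89 of 89). For miR-148a-3p the counts were 6 of 88, 21 of 88, 66 of 88, and 87 of 87, and for miR-148b-3p they were 1 of 89, 9 of 90, 32 of 90, and 61 of 89. On the arrays above background, 1 probe gave a steady share of the summed intensity, from 64.2% to 66.9% for miR-148a-3p (6 arrays), from 89.5% to 94.7% for miR-148b-3p (6 arrays), and from 65.2% to 66.9% for miR-152-3p (5 arrays). For miR-148b-3p the dimmer probe was well above background at 13 of 15 spots on 42 DPI replicate 1, at 3 of 14 on replicate 3, and at none on the other arrays, so that its level rests on 1 probe.

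The first question was how the family differed from sham at each time point, and it was tested with limma, which fitted the 486 miRNAs that every array of some group detected and adjusted p over them with Benjamini-Hochberg, with an adjusted p under 0.05 as the threshold. All 3 members were higher at 42 DPI than in the sham group, where 13.6% of the miRNAs tested passed in this direction. The log2 change was 1.13 for miR-148a-3p (SE 0.30, adjusted p = 0.0217), 0.94 for miR-148b-3p (SE 0.19, adjusted p = 0.0107), and 0.93 for miR-152-3p (SE 0.22, adjusted p = 0.0159). For miR-148b-3p every array of sham and 3 DPI was on the floor, so its SE holds no spread from those groups. With 0.5 times the floor its change was 1.55 (SE 0.41, limma adjusted p = 0.0167). The median change of the members was 0.94, against -0.09 over all miRNAs tested. Each member entered the test only through 42 DPI, the 1 group in which it was above background on all 3 arrays, so it had to be high there. The count, the p values, the median, and the order of the arrays thus describe the family without supporting the difference. More vesicles from a cell type and more of a miRNA per vesicle cannot be told apart in such bulk samples. The members were below background on all sham arrays, so each change has only a lower limit, reckoned against the dimmest signal above background on each sham array, or the member's own signal where that was higher. By the group means, miR-148a-3p was at least 1.65-fold higher at 42 DPI, miR-148b-3p at least 1.04-fold, and miR-152-3p at least 1.09-fold. These limits allow for the unmeasured sham signal alone. They hold no spread between arrays and are not confidence limits.

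Non-overlap with sham was no rarity at 42 DPI. All arrays of 42 DPI lay above all sham arrays for 31.3% of the miRNAs tested, the 3 members among them. Of the 167 miRNAs tested that, like the family, were below background on all sham arrays, 21 (12.6%) were higher at 42 DPI and 28 were lower. The falls of these 28 start from sham levels not above background, so they are not measured losses. Of the 230 detected on all 12 arrays, 33 (14.3%) were higher and 59 lower.

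The call at 42 DPI depended on single arrays and on the slide. It held for miR-148b-3p alone without sham replicate 1, without sham replicate 2, or without 42 DPI replicate 1, it was lost for miR-148a-3p without 42 DPI replicate 3, and it held for all 3 members without any other single array. With slide as a block, a fit that rests on the 1 array of 3 DPI on the sham slide, the changes were 0.89, 0.94, and 0.93 for miR-148a-3p, miR-148b-3p, and miR-152-3p, and none passed (limma adjusted p = 0.345, 0.212, and 0.245). The normexp background correction adds 50 intensity units to every spot before the arrays are scaled. With it the direction turned and all 3 members were lower at 42 DPI (-0.79, -0.71, and -0.73). The part of the added units in this turn was not tested. With the total signal that the scanner software gives per miRNA none passed, and with 2 times the floor miR-148a-3p alone did. By the methods' t-test all 3 members passed after Benjamini-Hochberg adjustment, and 1 of them was also over 2-fold.

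At 3 DPI none of the members passed against sham, nor did any of the 486 miRNAs (0% passed in this direction, and 2.26% had an unadjusted p under 0.05). The log2 change was -0.01 for miR-148a-3p (95% confidence interval -0.70 to 0.67) and -0.08 for miR-152-3p (-0.59 to 0.42), and miR-148b-3p was on the floor in both groups. No member had an unadjusted p under 0.05 by limma or by the methods' t-test. On the slide that both groups shared, the 1 array of 3 DPI differed from the mean of the 3 sham arrays by -0.17 for miR-148a-3p and -0.08 for miR-152-3p, values of 1 array that carry no test.

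At 14 DPI none of the members passed against sham, where 1.65% of the miRNAs tested were higher. The log2 changes were 0.61 for miR-148a-3p (SE 0.30, adjusted p = 0.297), 0.47 for miR-148b-3p (SE 0.19, adjusted p = 0.178), and 0.52 for miR-152-3p (SE 0.22, adjusted p = 0.223). By limma, 2 of the 3 members had an unadjusted p under 0.05, as did 11.1% of the miRNAs tested in this direction, and by the methods' t-test no member had. This count turned on 1 array. Without 14 DPI replicate 1 the changes were 0.98, 0.71, and 0.82, and all 3 members were higher (limma adjusted p = 0.0106, 0.0072, and 0.0046), as were 17.3% of the miRNAs tested. By the group means, the limit against sham was then at least 1.50-fold for miR-148a-3p and at least 1.01-fold for miR-152-3p. None could be given for miR-148b-3p. These limits hold no spread between arrays and are not confidence limits. With all 3 arrays, 2 of them above background, the same reckoning gave 1.15-fold for miR-148a-3p and no limit for the others. The 14 DPI mean then includes replicate 1, which was below background, so 1.15-fold is not a lower limit. The limma confidence interval of this log2 change, -0.08 to 1.29, includes no change.

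The next question was whether the time points differed from each other. At 42 DPI all 3 members were higher than at 3 DPI, where 14.2% of the miRNAs tested passed in this direction. Here too the members had entered the test only through 42 DPI. The count, the p values, and the order of the arrays thus describe the family without supporting the difference. The log2 differences were 1.14 for miR-148a-3p (SE 0.30, limma adjusted p = 0.0281), 0.94 for miR-148b-3p (SE 0.19, adjusted p = 0.0172), and 1.02 for miR-152-3p (SE 0.22, adjusted p = 0.0188). For each member all arrays of 42 DPI lay above all arrays of 3 DPI, which was so for 28.6% of the miRNAs tested. miR-152-3p, which was below background on all arrays of 3 DPI, was at least 1.89-fold higher by the group means, a limit that holds no spread between arrays. Here both groups had arrays on the same slide. Among the 8 arrays of that slide the differences were 1.06, 0.94, and 1.02, but none passed over these fewer arrays (limma adjusted p = 0.103, 0.0786, and 0.0809). For miR-148b-3p and miR-152-3p every array of 3 DPI was on the floor, so leaving out replicate 1 could not move their differences. The number of members called fell to 0 without 42 DPI replicate 1 or without 42 DPI replicate 3, to 1 without 3 DPI replicate 3, and to 2 without 3 DPI replicate 1 or without 42 DPI replicate 2. With slide as a block the call of miR-148a-3p was lost (1.06, limma adjusted p = 0.0581) and those of the other 2 members held. With the software total signal or normexp the direction turned and none passed, and with 2 times the floor miR-148a-3p alone passed.

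Against 3 DPI, 14 DPI showed differences of 0.62, 0.47, and 0.60 for miR-148a-3p, miR-148b-3p, and miR-152-3p, none of which passed (limma adjusted p = 0.285, 0.219, and 0.205), while 0.617% of the miRNAs tested were higher. Without 14 DPI replicate 1 the differences were 0.99, 0.71, and 0.90 and all 3 passed (adjusted p = 0.0146, 0.0085, and 0.0042), with 15.2% of the miRNAs tested. Between 42 and 14 DPI the differences were 0.52 (95% confidence interval -0.16 to 1.21), 0.47 (0.04 to 0.90), and 0.41 (-0.09 to 0.92), and none passed, nor did any miRNA tested (0%, with 11.1% at an unadjusted p under 0.05 in either direction and 1.03% in this one). By limma the unadjusted p was under 0.05 for 2 members between 14 and 3 DPI, where 9.88% of the miRNAs tested were higher at this level, and for 1 between 42 and 14 DPI, and by the methods' t-test it was so for no member. For each member the group mean was lowest in sham or 3 DPI, higher at 14 DPI, and highest at 42 DPI, and of the neighbors in this order no pair differed at the adjusted threshold.

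**Figure D2:**
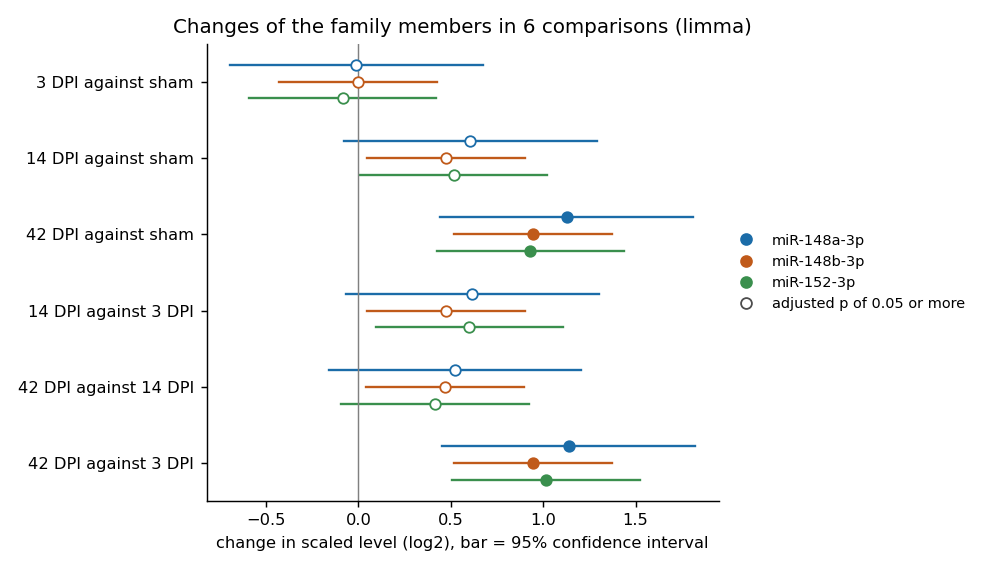
Log2 change of each member (horizontal axis) in 6 comparisons (vertical axis) from the limma fit over 12 arrays, with bars for the 95% confidence interval and filled points for an adjusted p under 0.05. All 3 members are filled for 42 DPI against sham and against 3 DPI, at changes between 0.93 and 1.14, and in no other comparison.

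The plot of changes gives the 3 members side by side. Their intervals overlapped widely in each comparison, and the comparisons against sham share the same 3 control arrays.

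The brightness of the arrays moved with the family. All 3 members were above background on each of the 5 arrays with a 75th percentile between 1116 and 2936. On the other 7 arrays, at 619 or below, a member was above background in 2 cases, miR-148a-3p and miR-148b-3p on 3 DPI replicate 2, the brightest of the 7. Replicate 1 of 14 DPI, where no member was above background, had a 75th percentile of 588, against 1173 and 1116 for the other arrays of its group. The scaled levels divide by this percentile, and whether brightness has a part in the changes that remain was not tested.

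**Figure D3:**
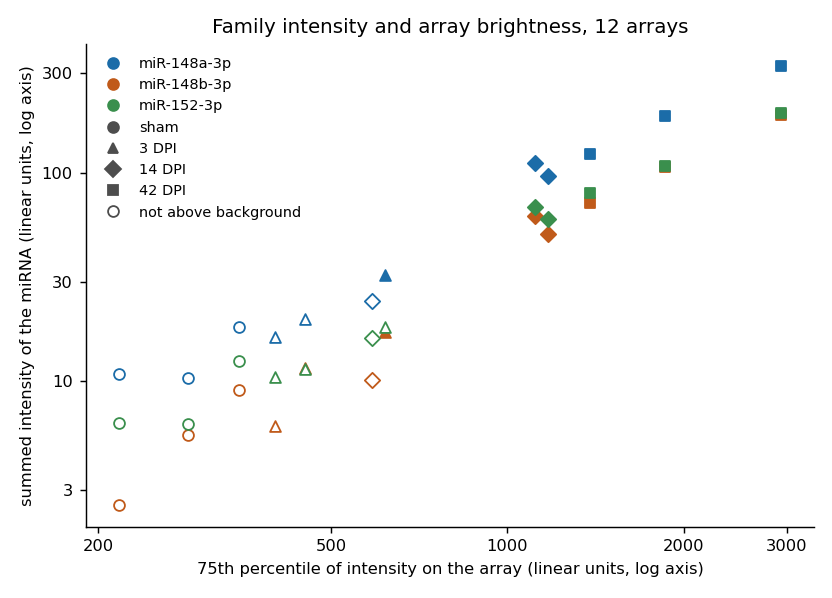
Summed intensity of each member (vertical axis, linear units on a log axis) against the 75th percentile of the array (horizontal axis, linear units on a log axis), with 1 color per member, 1 symbol shape per group, and filled symbols for arrays above background. The filled symbols of all 3 members lie on the 5 arrays with a percentile of 1116 or more, and 2 further ones on the array at 619.

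The plot of intensity against array brightness also shows the members moving side by side. Whether they changed unequally was asked with differences between members on the same array, which do not depend on the scaling between arrays apart from the floor. An exact permutation test over all 369600 assignments of the 12 arrays to the 4 groups gave two-sided p = 0.652 for miR-148a-3p minus miR-148b-3p, p = 0.573 for miR-148a-3p minus miR-152-3p, and p = 0.587 for miR-148b-3p minus miR-152-3p (0.652 for each when adjusted over the 3 pairs). From sham to 42 DPI these log2 differences moved by 0.19, 0.20, and 0.01, which was not tested by itself. Most values of sham and 3 DPI hold a member on the floor, so the test says little about those groups. On the arrays where both members of a pair were above background, the difference of miR-148a-3p and miR-148b-3p varied over a range of 0.14 (SD 0.06, 6 arrays), while the intensity of miR-148a-3p spanned 10.1-fold. The difference of miR-148a-3p and miR-152-3p varied over 0.18 (SD 0.07, 5 arrays), and that of miR-148b-3p and miR-152-3p over 0.23 (SD 0.09, 5 arrays). The part of cross-hybridization between the probes in these narrow ranges was not tested.

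**Figure D4:**
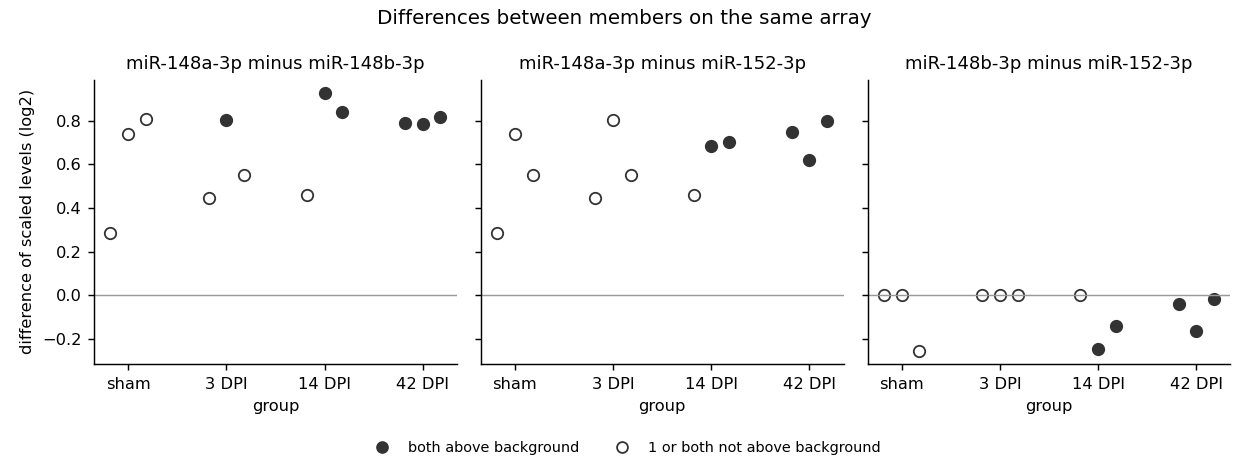
Log2 difference of scaled levels between members on the same array (vertical axis) for 3 pairs by group (horizontal axis), with filled points where both members were above background and open points elsewhere. The filled points of a pair span 0.14, 0.18, and 0.23, and the height of a panel has no meaning of its own because the probes of different miRNAs differ in efficiency.

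The plot of differences on the same array shows that the wider spread lay among the open points. The other arms of the 3 hairpins, miR-148a-5p, miR-148b-5p, and miR-152-5p, were below background and on the floor on all 12 arrays. Signal above background was thus read by the probes of the 3p arms alone, the arm known as the guide strand of this family. How much of it each hairpin gave cannot be told, because these probes may cross-hybridize.

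The miR-130/miR-301 family is the nearest relative by seed. Its members hold the 6 bases AGUGCA at positions 2 to 7, which the miR-148/miR-152 family holds at positions 3 to 8. The shared bases are in capitals below, to show how far the likeness goes, and miR-301b-3p was not in the sequence table.

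miR-130a-3p: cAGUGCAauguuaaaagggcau
miR-130b-3p: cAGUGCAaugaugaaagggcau
miR-301a-3p: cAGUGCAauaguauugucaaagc

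None of the 3 miRNAs of this family with levels above the floor passed in any of the 6 comparisons. At 42 DPI against sham the log2 change was 0.32 for miR-130a-3p (limma adjusted p = 0.550), 0.36 for miR-301a-3p (adjusted p = 0.330), and -0.19 for miR-130b-3p (adjusted p = 0.732), with the first 2 above background on all 12 arrays. miR-301b-3p was on the floor in every group and above background on 2 arrays of 14 DPI and on 3 of 42 DPI, so that it could not pass, although its mean summed intensity was 4.89 in sham and 55.2 at 42 DPI. Whether the 2 families changed by different amounts was not tested.

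Among the other miRNAs tested, those whose scaled levels ran most like the family over the 12 arrays were named by Pearson correlation, as a description over arrays that share brightness and slide. For miR-148a-3p they were miR-98-5p (r = 0.985), miR-380-3p (0.977), and miR-128-3p (0.971). For miR-148b-3p they were miR-194-5p (0.988), miR-128-3p (0.972), and miR-350-3p (0.963), and for miR-152-3p miR-194-5p (0.982), miR-350-3p (0.975), and miR-128-3p (0.974). The members correlated with each other at 0.961, 0.973, and 0.981. Of these, miR-98-5p, a let-7 family miRNA, and miR-128-3p, known from neurons, were above background on all 12 arrays. The log2 change from sham to 42 DPI was 1.38 for miR-98-5p (limma adjusted p = 0.0152) and 1.05 for miR-128-3p (adjusted p = 0.0217). It was 1.04 for miR-350-3p (adjusted p = 0.0134), 0.85 for miR-380-3p (adjusted p = 0.0486), and 0.60 for miR-194-5p (adjusted p = 0.0172). miR-380-3p and miR-194-5p were below background on all sham arrays. All of these miRNAs were picked for running like the family on these arrays, so these values describe them without supporting a difference.

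Markers of cell types moved in the same comparison. Of 6 miRNAs listed for microglia and myeloid cells, 4 (miR-142a-3p, miR-142a-5p, miR-146a-5p, and miR-155-5p) were below background on all sham arrays and only 1 was above background on all of them. Most of this list was thus not above background in the sham exosomes, which are labeled microglial. The sham arrays were the dimmest of the 12, and the part of brightness in this was not tested. At 42 DPI, 3 of the 4 tested from the microglial and myeloid list were higher than in sham, while miR-142a-5p was still below background on all 3 arrays. The number of the list above background on every array was 1 in sham, 2 at 3 DPI, 2 at 14 DPI, and 4 at 42 DPI. Some may thus have entered the test only through 42 DPI, where they had to be high, so this count supports no difference. The 5 neuronal miRNAs were above background on all 12 arrays, and 2 were higher at 42 DPI. Of the oligodendrocyte list 2 of 3 were higher and of the vascular list 1 of 4, of which miR-126a-5p, miR-143-3p, and miR-145a-5p were below background on all sham arrays. The number of the vascular list above background on every array was 1 in sham, 1 at 3 DPI, 2 at 14 DPI, and 4 at 42 DPI, so the same limit holds. The 1 erythrocyte miRNA tested of 3, all below background on the sham arrays, and 5 of 5 epithelial miRNAs were lower. The erythrocyte fall thus starts from a sham level not above background and is not a measured loss. Over all miRNAs tested, 13.6% were higher and 20.6% lower in this comparison. The summed log2 level ranged in sham from -0.47 to -0.02 for the microglial and myeloid list and from 3.97 to 4.38 for the neuronal list. At 42 DPI it ranged from 0.47 to 0.63 and from 4.84 to 5.03. Between the same groups the oligodendrocyte list went from between 0.85 and 1.33 to between 2.04 and 2.15, and the vascular list from between 0.14 and 0.59 to between 0.61 and 0.83. The erythrocyte list went from between -3.12 and -2.71 to between -3.47 and -3.11, and the epithelial list from between -0.05 and 1.25 to between -1.50 and -1.31. At 3 DPI no list had a member that passed against sham, and at 14 DPI only 1 epithelial miRNA did, which was lower, as were 2.06% of all miRNAs tested. The part of these other miRNA sources in the levels of the family was not tested.

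A table of processed log2 values was deposited beside the scanner output, and in it the arrays of 14 DPI lie closer together for each member (SD 0.05, 0.14, and 0.10, against 0.67, 0.45, and 0.54 in the scaled levels), while those of 42 DPI lie further apart (0.24, 0.36, and 0.22, against 0.16, 0.16, and 0.11). Its values are higher for brighter miRNAs, while its scaling and centering are not stated. In that table miR-148a-3p stood at 4.17, 4.12, and 4.23 on the arrays of 14 DPI, miR-148b-3p at 2.97, 2.83, and 3.11, and miR-152-3p at 3.36, 3.26, and 3.46. For each member the value of replicate 1 equals the mean of replicates 2 and 3 to within 1e-05, although the spots of that array read far lower. The same held for 1 array in 8 of the 12 sets of 3 values that the family has in the table, the exceptions being the sets of 42 DPI and that of miR-148a-3p at 3 DPI. Over all miRNAs it held in 702 of the 2713 sets whose values vary (25.9%). With these values the limma fit called all 3 members higher at 14 DPI than in sham, by 2.42, 3.02, and 2.89, as it did 20.2% of the miRNAs tested, and the spread between the 3 arrays in it is not one of 3 separate measurements.

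**Figure D5:**
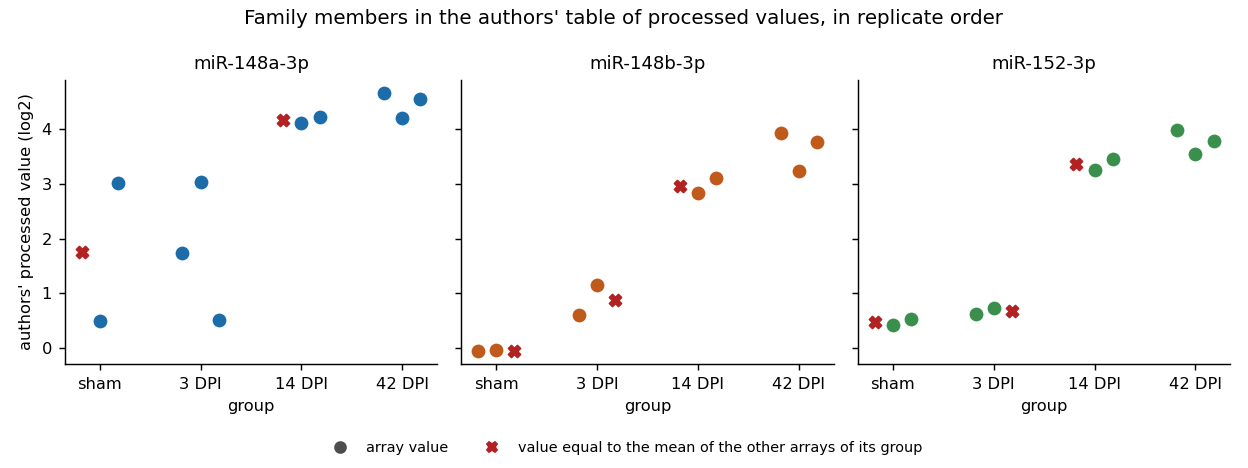
Deposited processed log2 value of each member (vertical axis) on the 3 arrays of each group (horizontal axis), with a cross where the value equals the mean of the other 2 arrays of its group to within 1e-05. Crosses stand in 8 of the 12 sets, and at 14 DPI each marks replicate 1.

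The plot of deposited values places all 14 DPI arrays of a member close together, whereas the plot of levels by array places replicate 1 apart.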

How the data were processed

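RNA of microglial exosomes was hybridized to 12 single-color Agilent miRNA arrays (cyanine 3). For each array the authors deposited the output of Agilent Feature Extraction 10.7.1.1. It gives an intensity on a linear scale for each of 58594 spots, from which the scanner software had removed background but which had not been scaled between arrays, as well as a total signal per miRNA. The deposited table of processed log2 values comes with no normalization that is given in the sources used here. Its columns each have a median of -3.32, and it ranks the detected miRNAs of an array much as their summed intensities do (rank correlation from 0.940 to 0.986).

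Without control spots 56430 remained per array, outlier spots were then dropped, and the rest were averaged for each of 4415 probes. Names were taken from the injury arrays, because on each sham array 2 spots carry another name. No spot was saturated. The floor was the median over arrays of percentile 1 of the detected scaled signals. limma 3.58.1 in R 4.3.3 fitted the 4 groups in 1 model without covariates, two-sided. Other steps used Python 3.11.15, NumPy 2.4.6, pandas 2.3.3, SciPy 1.17.1, and matplotlib 3.10.9. The number of arrays limits the precision.

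The members, related miRNAs, and marker lists were chosen with earlier results of these data known. The miRNAs named are the members, their other arms, any further miRNA with their seed, the miR-130/miR-301 family, and for each member the 3 most correlated miRNAs. Equal replicate numbers went with shared deviations only for sham and 14 DPI (correlations across miRNAs of 0.83, 0.44, and 0.75), and nothing but these correlations speaks for a pairing. Processing was varied in the signal (software total, brightest probe, normexp), the scaling, the floor, the filter and detection call, the model (groups compared alone, blocks for replicate number and for slide, the methods' t-test), the source (the deposited table), and the arrays kept. Residual background removal, the replicate block with the groups compared alone, and the fit within slide 1 were added after the data had been seen.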

Additional observations from a re-analysis of the deposited data

Results flagged for a closer look

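The change of each member against sham differed between 3 and 42 DPI. Sham cancels in this difference, so it is the comparison of 42 with 3 DPI already given and no further test. It was 1.14 for miR-148a-3p, 0.94 for miR-148b-3p, and 1.02 for miR-152-3p on the log2 scale, with limma adjusted p of 0.0281, 0.0172, and 0.0188, and 14.2% of the miRNAs tested were higher. The members entered the test only through 42 DPI, so these values describe the family without supporting the difference. Within slide 2, which holds 2 of the 3 arrays of 3 DPI and all of 42 DPI, the differences had the same direction and none passed. For miR-148b-3p and miR-152-3p, on the floor on every array of 3 DPI, that direction could not change. The arrays of 42 DPI were also brighter than those of 3 DPI, and the part of brightness was not tested.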

How the results depend on the processing

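All values here are log2 changes or counts of the 3 members called higher, and they are given for miR-148a-3p, miR-148b-3p, and miR-152-3p in that order. The cause of a move was not tested. All 3 members were higher at 42 DPI than in sham and than at 3 DPI, and none passed in the other 4 comparisons. At 42 DPI against sham the count fell to 0 with the software total signal, with normexp (3 lower), and with slide as a block, and to 1 with 2 times the floor. Over the alternatives other than single arrays left out, the adjusted p ran from 2e-05 to 0.790, from 3.5e-07 to 0.365, and from 3.2e-07 to 0.762. At 42 against 3 DPI the count fell to 0 with the total signal, with normexp, within slide 2, and with the replicate block when the other groups were kept out of the model, to 1 with 2 times the floor, and to 2 with slide as a block (without miR-148a-3p), and the adjusted p ran from 0.00020 to 0.875, from 7.5e-06 to 0.761, and from 9.0e-07 to 0.597. At 14 DPI against sham it rose to 3 without scaling and with the deposited table, and normexp gave 0 higher and 3 lower (adjusted p from 0.00040 to 0.856, from 2.4e-06 to 1, and from 1.0e-06 to 1). At 3 DPI against sham the deposited table gave 1, and normexp 0 higher and 3 lower. The deposited table gave 3 at 14 against 3 DPI, and no scaling gave 3 at 42 against 14 DPI. Without single arrays the count ran from 1 to 3 at 42 DPI against sham, from 0 to 3 at 42 against 3 DPI, at 14 DPI against sham, and at 14 against 3 DPI, and from 0 to 0 in the other 2 comparisons.

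Directions turned as follows. Normexp, which by its construction adds the same 50 units on dim and bright arrays before they are scaled, gave -0.77, -0.71, and -0.73 at 14 DPI against sham, -0.79, -0.71, and -0.73 at 42 DPI against sham, -0.29, -0.20, and -0.21 at 14 against 3 DPI, -0.31, -0.20, and -0.21 at 42 against 3 DPI, and -0.0199 for miR-148a-3p at 42 against 14 DPI. The total signal gave -0.21, -0.28, and -1.04 at 42 against 3 DPI, -0.25 for miR-148a-3p at 14 against 3 DPI, and -0.74 and -1.31 for miR-148b-3p and miR-152-3p at 42 against 14 DPI. The changes at 3 DPI against sham were near 0 and turned for miR-148a-3p to 0.63 with the total signal, 0.0178 with the brightest probe, 0.33 without scaling, and 0.0057 with the deposited table, and ran from -0.17 to 0.0865 without single arrays. For miR-152-3p they turned to 1.83 with the total signal, 0.0098 without scaling, and 0.20 with the deposited table.

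The differences on the same array from sham to 42 DPI (0.19 for miR-148a-3p minus miR-148b-3p, 0.20 for miR-148a-3p minus miR-152-3p, and 0.01 for miR-148b-3p minus miR-152-3p) turned for the first 2 to -0.76 and -0.37 with the total signal, -0.0843 and -0.0609 with normexp, and -0.97 and -0.57 with the deposited table, and for the first alone to -0.42 with 0.5 times the floor. With 2 times the floor the first 2 passed the permutation test across the groups, with changes of 0.70 and 0.69, and the last was -0.0129. The last passed that test with the brightest probe (change 0.37) and with the deposited table (change 0.40), and was -0.0724 on the 8 arrays of slide 2. Without single arrays they ran from 0.02 to 0.28, from 0.08 to 0.30, and from -0.0724 to 0.0573.

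With the replicate number as a block no call on a member changed in the fit over all arrays (adjusted p = 0.0270, 0.0217, and 0.0270 at 42 DPI against sham, and 0.271, 0.240, and 0.247 at 14 DPI against sham, the 1 pair of groups whose numbers deviate together, by limma). With the other groups kept out of the model, the block left 2 members called at 42 DPI against sham and 0 at 42 against 3 DPI.

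The limit of these arrays was signal over background. The family lay below background on every sham array, so the size of its change depends on the floor, and a filter for miRNAs detected on all 12 arrays gave no value for it.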

Other observations

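The scanner files hold a total signal per miRNA and a total per probe. For the family, the total per miRNA equaled the sum of the probe totals to within 1% in 13 of the 25 cases in which the software called a member detected on an array (6 of 10 for miR-148a-3p, 2 of 8 for miR-148b-3p, and 5 of 7 for miR-152-3p). Over all miRNAs and arrays it did so in 4253 of 5913 cases (71.9%). The widest gap in the family was for miR-152-3p on 3 DPI replicate 2, where the total per miRNA was 269.7 and the probe totals summed to 4.95.

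In the deposited table of processed values, 1 array equaled the mean of the other 2 of its group in 28.6% of the varying sets of sham, 30.5% of those of 3 DPI, 27.3% of those of 14 DPI, and 17.1% of those of 42 DPI.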
